A study of Mus musculus with 12 samples.

Results

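Macrophages and monocytes were followed in whole LLC tumors through 35 genes that mark these cells or their states. LLC (Lewis lung carcinoma) is a mouse lung cancer line that forms tumors under the skin of C57BL/6 mice. The 35 genes were chosen by symbol. Where a gene had several probe sets, the brightest over the 12 tumors was read. All 35 were found among the 18193 genes of the array, and 33 of them lay above the filter on dim genes that left 12735 genes for testing. Retnla, a resistin-like protein (log2 intensity 4.89 to 5.84), and Timd4, a dead-cell receptor of resident macrophages (at most 4.39), lay below it and were not tested.

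Each of the 12 tumors came from a female C57BL/6 mouse aged 6 to 8 weeks and was taken 19 days after injection of the cells, with treatments allotted at a volume of 60 to 80 mm3. There were 4 groups of 3 tumors, and this number limits the precision. In the 1D11_radiation group mice received 1D11, an antibody that neutralizes TGF-beta, with radiation. In the radiation group they received 13C4, the isotype control antibody, with radiation. In the 1D11 group they received 1D11 alone, and in the control group 13C4 alone. The radiation dose is given as 5 fractions of 6 Gy in one label field and as 2 Gy in another. The labels number the tumors of a group and say no more of how they are independent, so p-values measure the spread between these samples, which may be technical. They name the cell type as LLC, but a tumor also holds host macrophages, vessels, fibroblasts and other cells.

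Monocytes leave the blood, enter tumors and mature into macrophages, which engulf dead cells and debris, degrade them in lysosomes, present antigen and release factors that act on vessels and lymphocytes. Their identity rests on the transcription factor PU.1, encoded by Spi1, and their state shifts with cytokines, among them TGF-beta. In whole-tumor RNA, more macrophages and more RNA per macrophage cannot be told apart. Several of the genes, such as Axl, Ctsb, Ctsd and Gpnmb, are also made by tumor or stromal cells.

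Mean log2 intensity was above 12 for 3 of the 35 and below 7 for 7, and a level on one probe set cannot be ranked against that on another. The distance between the highest and the lowest tumor ran from 0.37 log2 units for Mertk, a receptor for the uptake of dead cells, to 3.01 for Chil3, a secreted chitinase-like protein. It was over 1 log2 unit for 11 genes. The pooled SD within groups lay between 0.07 and 0.60.

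The tumors differed from one another in how many of the 35 genes stood above their own mean over the 12 tumors. In 1D11_radiation tumors this number was 9, 31 and 9, in radiation tumors 24, 21 and 22, in 1D11 tumors 17, 25 and 25, and in control tumors 12, 10 and 9. The 3 control tumors were alike in this count, whereas 1D11_radiation replicate 2 stood apart from the other tumors of its group. That tumor had the highest value of the 12 for 11 of the genes. The median of the centred values was 0.20 there, against -0.14 in each of the other tumors of its group. Among control tumors the lineage genes differed, at a median of 0.19 in replicate 1, -0.34 in replicate 2 and -0.47 in replicate 3.

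**Figure D1:**
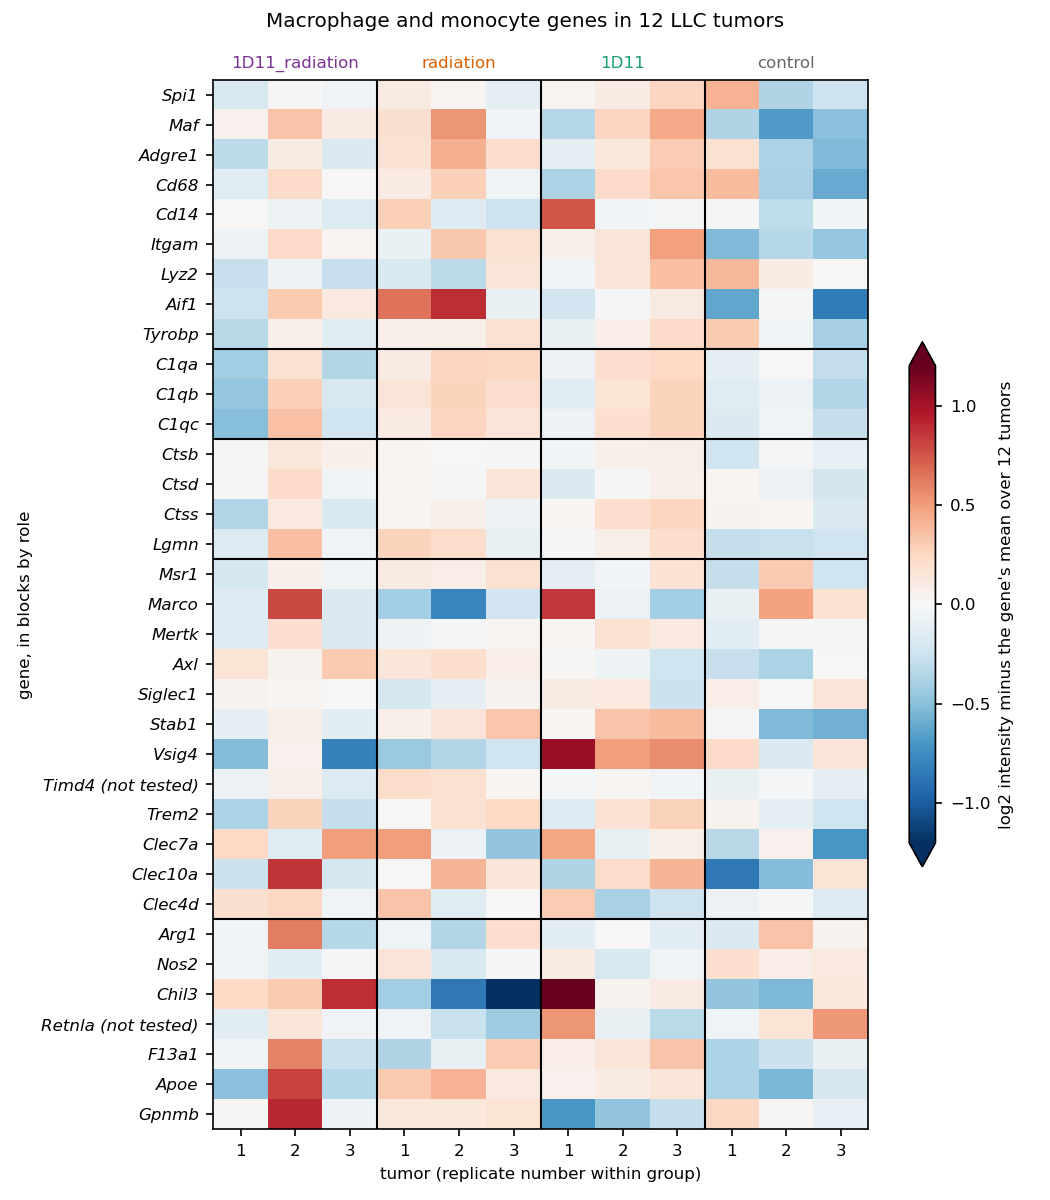
Each row is a gene and each column a tumor, with replicate number below and group above. Color gives log2 intensity minus the mean of the gene over the 12 tumors, and black lines divide the groups and the roles. Most rows are red in 1D11_radiation replicate 2 (31 of 35 above their mean) and blue in control replicate 3 (26 of 35 below).

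Genes of other tissues also varied, and these values bear on the comparisons below. Skeletal muscle markers (10 of 10 tested) had a mean log2 intensity of 7.29 to 9.39 in 1D11_radiation tumors, 8.79 to 11.07 in radiation tumors, 8.70 to 9.26 in 1D11 tumors and 7.71 to 10.05 in control tumors. The highest muscle values were those of radiation replicate 3 (11.07) and control replicate 1 (10.05). Both tumors also had the lowest array weights, limma's estimate of how closely an array follows its group, at 0.359 and 0.297. Stress and RNA quality genes (9 of 9 tested) had a median difference of -0.08 between radiation and control tumors. Between radiation and control tumors all 10 muscle genes were higher, at a median of 1.25, with none called, a call being a Benjamini-Hochberg adjusted p under 0.05 in limma's test. Dendritic cell markers (6 of 9 tested) were at 6.43 to 6.83 in radiation tumors and 6.04 to 6.21 in control tumors, and of these Cd83 rose. T cell markers (4 of 8 tested) were at 6.35 to 6.43 in radiation tumors and 6.12 to 6.31 in control tumors. Of these 4, 2 were higher, and Cd3d rose (0.69 ± 0.13), while Cd4 (-0.08) and Cd8a (-0.03) were lower. Fibroblast markers (8 of 8 tested) had 2 higher members at a median of -0.35, and Pdgfra fell (-0.98 ± 0.14). Endothelial markers (7 of 8 tested) were all lower, at a median of -0.58, and Egfl7 and Tek fell. The part of these signals in the results was not tested.

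Radiation under the control antibody was set against the control antibody alone. Of the 33 tested genes, 26 had a higher mean in radiation than in control tumors and 7 a lower one, at a median log2 change of 0.19, with 49.6% of all tested genes higher. Only Itgam passed limma's test at a Benjamini-Hochberg adjusted p under 0.05, which was passed by 2.39% of all genes tested. Without control replicate 1 and radiation replicate 3 together, an alternative chosen after seeing the data, 3 of the 33 were called (Adgre1, Aif1 and Stab1, not Itgam), 24 were higher and the median was 0.26, and 4.47% of all genes were called. Leaving out control replicate 1 gave a median of 0.31, and leaving out control replicate 3 gave 0.12. At an unadjusted p under 0.05 there were 10 genes (18.7% of all genes), all of them higher (10.0%), while 8.74% of all genes were lower. The 3 radiation tumors lay wholly above the 3 control tumors for 10 genes (10.6% of all genes) and wholly below for Marco and Vsig4 (10.0%).

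Itgam encodes the integrin CD11b, which lets monocytes, macrophages, neutrophils and natural killer cells adhere to vessels and bind complement-coated particles. Its log2 intensity was 8.6, 9.0 and 8.86 in radiation tumors, against 8.15, 8.34 and 8.21 in control tumors. Every radiation tumor was above every control tumor. The log2 change was 0.59 ± 0.13 (SE, n = 3 tumors per group, 1.5-fold, adjusted p = 0.0453, limma), higher in 3 of 3 tumors. The adjusted p ran from 0.0225 to 0.149 over 18 alternative settings, while the log2 change stayed between 0.50 and 0.70. The call was kept in 4 of them (a replicate block, array weights, and leaving out 1D11 replicate 3 or 1D11_radiation replicate 2) and lost when any radiation or control tumor was left out. Leaving out control replicate 1 gave 0.55 (adjusted p = 0.0779, limma). Neutrophil markers (7 of 11 tested), which share Itgam with macrophages, had a mean log2 intensity of 7.39 to 7.79 in radiation tumors and 7.44 to 7.90 in control tumors, and their part in the Itgam values was not tested.

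The promoter of Itgam is shown because PU.1, the product of the listed gene Spi1, binds sites built around the letters GAGGAA, and Itgam was the one called gene. The window runs from 250 bases before to 50 bases after the RefSeq start site, at chr7:128062390-128062689 (GRCm38.p6, plus strand). It is written 5′ to 3′ on the strand of the gene, and capitals mark GAGGAA or its reverse complement TTCCTC.

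Itgam: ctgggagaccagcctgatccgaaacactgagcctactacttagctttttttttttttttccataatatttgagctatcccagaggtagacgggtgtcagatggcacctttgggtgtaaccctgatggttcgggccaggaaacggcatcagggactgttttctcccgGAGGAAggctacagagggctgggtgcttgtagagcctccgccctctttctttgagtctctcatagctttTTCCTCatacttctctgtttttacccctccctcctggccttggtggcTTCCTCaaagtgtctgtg

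The window holds 3 matches. Windows were at hand for 23 of the 35 genes, 28 windows in all, of which 19 (67.9%) held at least 1 match on either strand, against 28.3% of all 32851 promoter windows. A match of 6 letters is a description of the sequence and not a binding site.

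Of the other lineage genes all but Lyz2 had positive differences, and none was called. Maf, a transcription factor of mature macrophages, had log2 intensities of 11.53, 11.87 and 11.31 in radiation tumors, against 10.98, 10.66 and 10.84 in control tumors. These groups did not overlap, at a log2 change of 0.74 ± 0.20 (adjusted p = 0.0736, limma). Maf was called without 1D11 replicate 1 and with array weights. Of its 6 probe sets, 5 had positive differences between 0.46 and 0.89, and the one left had -0.12. Aif1, a calcium-binding protein of activated macrophages, had 9.24, 9.48 and 8.50 in radiation tumors, against 7.97, 8.57 and 7.75 in control tumors. Radiation replicate 3 lay below control replicate 2, and the change was 0.98 ± 0.26 (adjusted p = 0.0757). Leaving out radiation replicate 3 gave 1.26 (adjusted p = 0.0259). Aif1 was at 8.36, 8.58 and 8.70 in 1D11 tumors, which overlap with control tumors (0.45 ± 0.26).

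Adgre1, which encodes the macrophage surface marker F4/80, had 9.83, 10.08 and 9.86 in radiation tumors, against 9.84, 9.27 and 9.12 in control tumors. Control replicate 1 reached the level of the radiation tumors, and the change was 0.51 ± 0.18 (adjusted p = 0.159). Adgre1 was called when that control tumor was left out. Cd68, a lysosomal glycoprotein (0.32 ± 0.24), Tyrobp, an adaptor for activating receptors (0.15 ± 0.16), Spi1 (0.07 ± 0.17) and Cd14, the co-receptor for bacterial lipopolysaccharide (0.07 ± 0.20), had adjusted p from 0.521 to 0.887. Cd68 was highest of the 12 tumors in control replicate 1, at 10.60, and so were Tyrobp, at 11.65, and Spi1, at 7.89.

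Lyz2, the lysozyme of macrophages and neutrophils, had a difference of opposite sign. It was at 13.43, 13.30 and 13.77 in radiation tumors, against 14.01, 13.71 and 13.62 in control tumors, which overlap (-0.28 ± 0.15, adjusted p = 0.336).

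The 3 chains of C1q, the complement component that macrophages secrete and that tags dying cells, were each wholly higher in radiation than in control tumors. C1qa was at 12.01, 12.17 and 12.16 in radiation tumors, against 11.79, 11.91 and 11.61 in control tumors. The changes were 0.34 ± 0.15 for C1qa, 0.39 ± 0.17 for C1qb and 0.33 ± 0.18 for C1qc, and none was called (adjusted p from 0.232 to 0.351, limma). The other probe sets of C1qb gave smaller differences, 0.11 and 0.14.

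C1qa, C1qb and C1qc are neighbors on mouse chromosome 4 and, in all 3, the lowest of the 12 tumors was 1D11_radiation replicate 1. In C1qb the values were 11.35, 12.10 and 11.62 in 1D11_radiation tumors, 11.97, 12.08 and 12.01 in radiation tumors, 11.69, 11.98 and 12.08 in 1D11 tumors, and 11.67, 11.74 and 11.46 in control tumors. C1qc ran from 9.82 in 1D11_radiation replicate 1 to 10.69 in 1D11_radiation replicate 2. The promoter windows of C1qb (chr4:136886151-136886450, minus strand) and C1qc (chr4:136892865-136893164, minus strand) are given because these genes moved together from tumor to tumor; capitals again mark GAGGAA or TTCCTC.

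C1qb: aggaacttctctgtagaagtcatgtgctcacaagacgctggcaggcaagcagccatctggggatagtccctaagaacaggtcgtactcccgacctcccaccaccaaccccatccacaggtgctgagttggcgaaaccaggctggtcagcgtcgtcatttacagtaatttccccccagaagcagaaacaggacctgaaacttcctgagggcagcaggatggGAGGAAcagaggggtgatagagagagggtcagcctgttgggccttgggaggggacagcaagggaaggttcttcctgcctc

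C1qc: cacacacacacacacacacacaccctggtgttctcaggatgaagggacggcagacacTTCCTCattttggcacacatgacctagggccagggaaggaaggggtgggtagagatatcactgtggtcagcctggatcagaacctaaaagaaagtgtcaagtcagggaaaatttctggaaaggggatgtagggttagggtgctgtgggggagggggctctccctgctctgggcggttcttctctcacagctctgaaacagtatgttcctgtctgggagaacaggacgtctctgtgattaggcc

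Each of these windows holds 1 match, as GAGGAA in C1qb and as TTCCTC in C1qc.

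**Figure D2:**
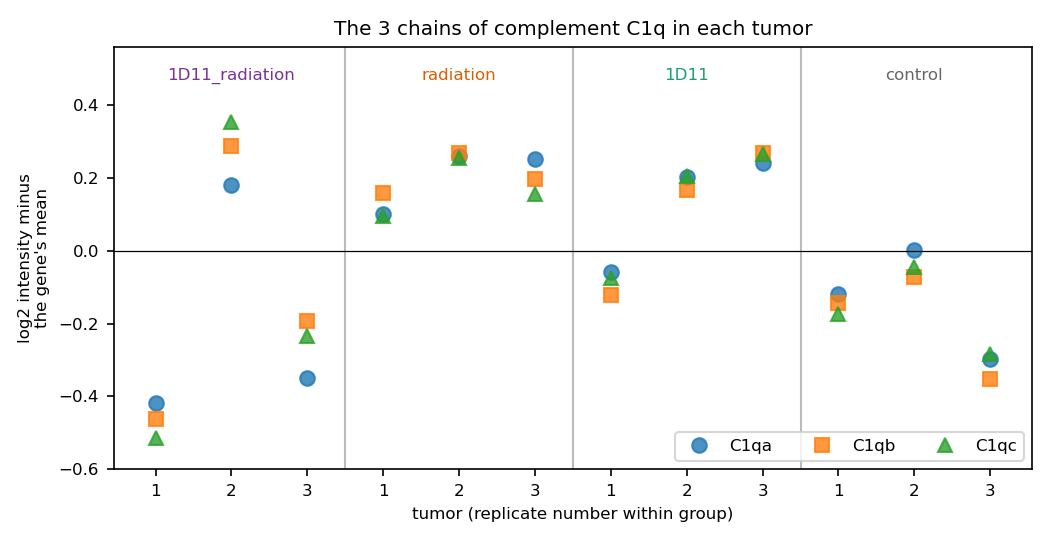
The vertical axis is log2 intensity minus the mean of the gene over the 12 tumors, the horizontal axis the tumors by group, and each symbol is 1 chain. The 3 chains lie close together in every tumor, above their mean in all 3 radiation tumors and lowest in 1D11_radiation replicate 1.

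Of the 4 lysosomal proteases all had positive differences between radiation and control tumors and none was called. Lgmn, the asparaginyl endopeptidase legumain, was at 11.20, 11.15 and 10.84 in radiation tumors, against 10.65, 10.67 and 10.69 in control tumors. The groups did not overlap, at 0.39 ± 0.13 (adjusted p = 0.147, limma). The cathepsins Ctsb (0.14 ± 0.07), Ctsd (0.15 ± 0.10) and Ctss (0.05 ± 0.11) had smaller values. Over the 12 tumors Ctsb ranged by 0.38 log2 units, Ctsd by 0.44 and Ctss by 0.61.

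Among 11 tested scavenger, lectin and dead-cell receptors 8 were higher and 3 lower in radiation than in control tumors, with none called. Stab1, a scavenger receptor of tissue macrophages and sinus endothelium, was at 9.44, 9.53 and 9.71 in radiation tumors, against 9.35, 8.85 and 8.80 in control tumors. That difference was 0.56 ± 0.15 (adjusted p = 0.0713, limma), and Stab1 was called without control replicate 1. Axl, a receptor tyrosine kinase for dead-cell uptake, had 0.36 ± 0.11 (adjusted p = 0.103, limma). Mertk, also a receptor for dead-cell uptake, had 0.04 ± 0.10 with a 95% interval reaching from -0.17 to 0.25.

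Marco, a scavenger receptor for bacteria and particles, had values of 5.91, 5.52 and 6.09 in radiation tumors, against 6.24, 6.80 and 6.50 in control tumors. All radiation tumors were lower, but the change of -0.67 ± 0.33 was not called (adjusted p = 0.303, limma), and its other probe set, at a mean log2 intensity of 4.72, gave -0.07. The mean of both probe sets gave -0.37. The lectins Clec10a (0.59 ± 0.33) and Clec7a, the beta-glucan receptor dectin-1 (0.31 ± 0.27), had pooled SDs within groups of 0.47 and 0.38. The lipid and dead-cell sensor Trem2 had 0.24 ± 0.17, Msr1, a class A scavenger receptor, 0.19 ± 0.15 and Clec4d, a lectin of myeloid cells, 0.15 ± 0.17. The other probe set of Trem2, at a mean log2 intensity of 5.88, gave -0.12. Siglec1 (-0.17 ± 0.10), a sialic acid receptor, disagreed between its probe sets, at -0.17, 0.11 and 0.33.

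Of the 6 tested activation-state and secreted genes, 3 were higher and 3 lower. Apoe, a lipid carrier abundant in macrophages, was at 11.53, 11.64 and 11.34 in radiation tumors, against 10.84, 10.67 and 11.02 in control tumors. The groups did not overlap, at 0.66 ± 0.27 (adjusted p = 0.212, limma), and Apoe was called when 1D11_radiation replicate 2 was left out (adjusted p = 0.0171). Arg1, the arginine-degrading enzyme of alternatively activated macrophages, had -0.13 (95% interval -0.62 to 0.35). Nos2, the nitric oxide synthase of classically activated macrophages, had -0.15 (95% interval -0.37 to 0.07) at a mean log2 intensity of only 5.83. F13a1, a clotting factor subunit of monocytes and macrophages, had 0.19 ± 0.21, Gpnmb 0.09 ± 0.22 and Chil3 -0.53 ± 0.42.

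**Figure D3:**
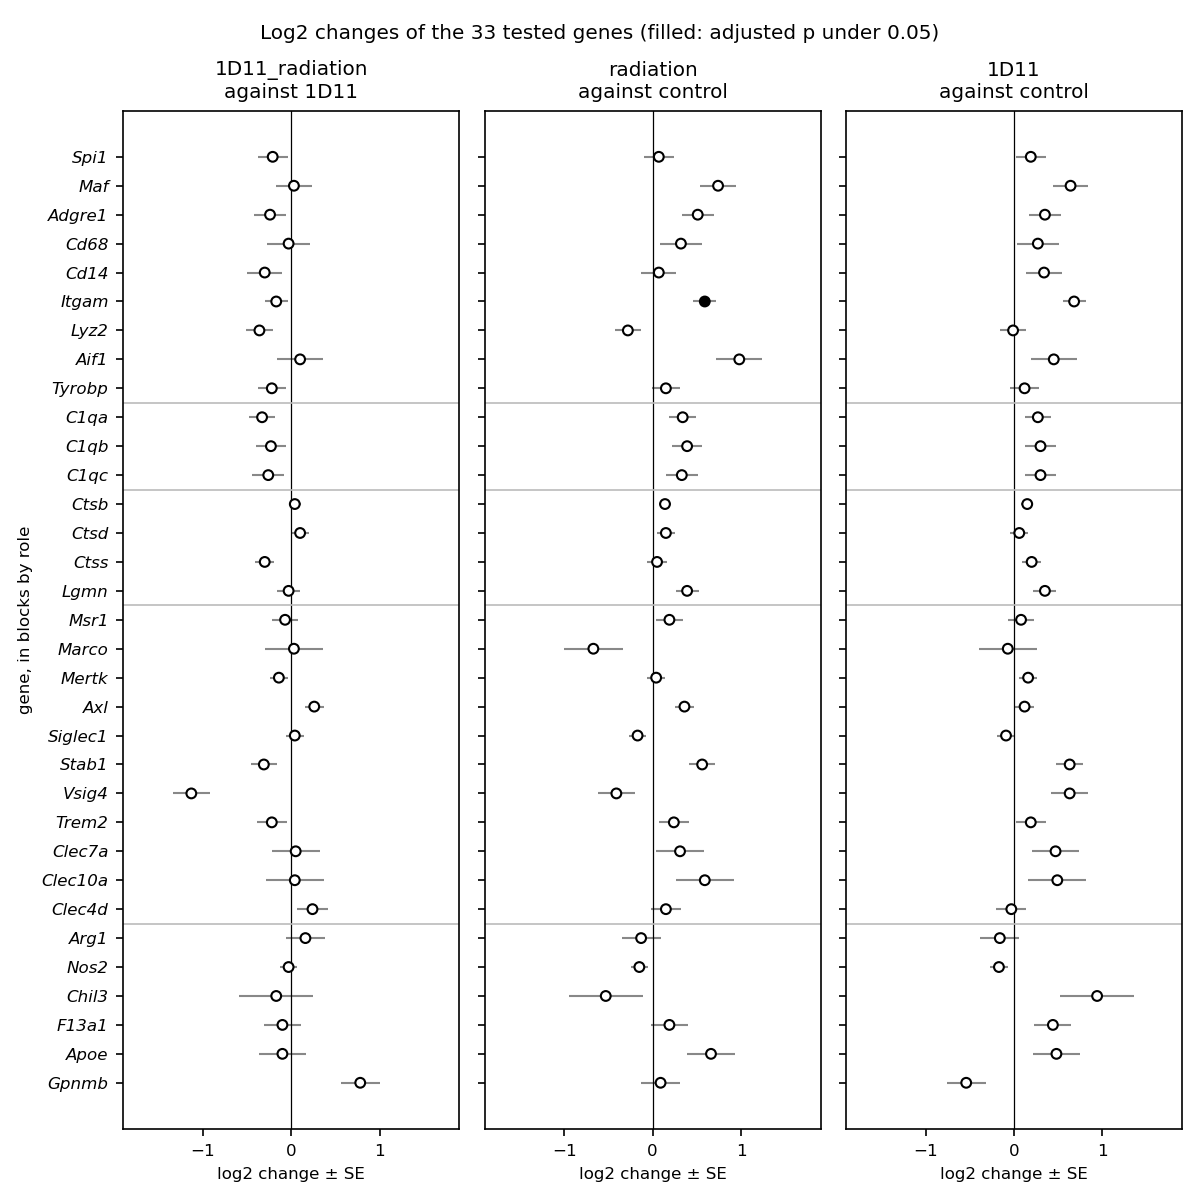
Points are log2 changes of the 33 tested genes with SE bars in 3 comparisons, in blocks by role. The 1 filled point, Itgam in radiation against control (0.59 ± 0.13), had an adjusted p under 0.05. Most points lie right of 0 in both panels set against control (26 of 33 in each), and 12 of 33 do in 1D11_radiation against 1D11.

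Radiation under TGF-beta neutralization (1D11_radiation against 1D11) gave no call among the 33 genes, against 0.0785% of all genes called by limma. At an unadjusted p under 0.05 there were 5 genes (15.5% of all genes), 2 higher (5.21%) and 3 lower (10.3%). With array weights 6 of the 33 were called, and 11.7% of all genes. In this comparison 12 genes were higher and 21 lower, at a median of -0.10, and 57.6% of all genes were lower. The 3 C1q chains had -0.33, -0.23 and -0.26, and of the 9 lineage genes 7 were lower. The other probe sets of C1qb gave -0.13 and -0.14. Without 1D11_radiation replicate 2, the tumor that stood apart, 1 gene (Vsig4) was called, against 0.110% of all genes. In that setting 8 of the 33 were higher and their median was -0.25, against -0.03 for all genes. Without 1D11_radiation replicate 1 the median of the 33 was -0.03 with 15 higher.

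Vsig4, a complement receptor of tissue-resident macrophages, had the largest change of the 33 genes in this comparison. Its log2 intensity was 6.05, 6.62 and 5.76 in 1D11_radiation tumors, against 7.62, 7.07 and 7.13 in 1D11 tumors. Every 1D11_radiation tumor was lower. The change of -1.13 ± 0.21 (0.457-fold) had an adjusted p of 0.0593 in limma's test and so missed the threshold. It was -1.37 (adjusted p = 0.0339) without 1D11_radiation replicate 2 and -1.13 (adjusted p = 0.0336) without control replicate 1. Under the control antibody, Vsig4 had 6.13, 6.22 and 6.33 in radiation tumors, against 6.80, 6.40 and 6.72 in control tumors. The change there was not called (-0.41 ± 0.21, adjusted p = 0.313), without overlap, and the difference between the 2 effects was not called (-0.72 ± 0.29, adjusted p = 0.616). Its promoter window (chrX:96293389-96293688, minus strand) is shown because Vsig4 had the largest fold of the 33 genes in this contrast, and holds 2 matches to GAGGAA.

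Vsig4: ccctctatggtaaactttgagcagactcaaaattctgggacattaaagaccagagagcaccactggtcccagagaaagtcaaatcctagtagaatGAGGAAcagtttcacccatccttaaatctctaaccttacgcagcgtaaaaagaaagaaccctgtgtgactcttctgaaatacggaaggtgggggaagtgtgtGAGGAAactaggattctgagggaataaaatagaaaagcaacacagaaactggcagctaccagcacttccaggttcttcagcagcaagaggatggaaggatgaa

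Gpnmb, a membrane glycoprotein of lipid-laden macrophages, ran the other way. It was at 8.12, 9.01 and 8.04 in 1D11_radiation tumors, against 7.41, 7.63 and 7.82 in 1D11 tumors. The groups did not overlap, at 0.78 ± 0.22 (adjusted p = 0.134, limma), and the value of 1D11_radiation replicate 2 was the highest of the 12 tumors. The change was 0.46 without that tumor and 0.47 for the mean of probe sets, the other one giving 0.16. In radiation tumors Gpnmb was at 8.24, 8.23 and 8.27. Lyz2 was lower in every 1D11_radiation tumor, at 13.34, 13.56 and 13.34, against 13.58, 13.76 and 13.98 in 1D11 tumors (-0.36 ± 0.15, adjusted p = 0.267). The groups also did not overlap for Spi1, which was lower, and Axl, which was higher, so that 2 genes were wholly higher (9.59% of all genes) and 3 wholly lower (16.5%). Keratinocyte markers (4 of 8 tested) were at 6.09 to 6.13 in 1D11_radiation tumors and 6.18 to 8.80 in 1D11 tumors, and mast cell markers (6 of 8 tested) were at 6.20 to 6.99 in 1D11_radiation tumors and 7.96 to 8.07 in 1D11 tumors, and of these Mcpt4 fell. All 10 muscle genes were lower, at a median of -0.83, with none called. Their part in these values was not tested.

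TGF-beta neutralization without radiation (1D11 against control) gave no call among the 33 genes, with 0.0157% of all genes called by limma. At an unadjusted p under 0.05 there were 7 genes (14.1% of all genes), 6 higher (9.01%) and 1 lower (5.12%). With array weights 1 (Stab1) was called, and 0.102% of all genes. In 1D11 tumors 26 genes were higher and 7 lower than in control tumors, at a median of 0.27, and 62.1% of all genes were higher. This comparison and radiation against control share the 3 control tumors, so their values are not independent. Mast cell markers (6 of 6 tested, at a median of 1.52), keratinocyte markers (4 of 4, at 1.11) and muscle markers (10 of 10, at 0.40) were higher in 1D11 tumors with none called. Dendritic cell markers were at 6.39 to 6.54 in 1D11 tumors and 6.04 to 6.21 in control tumors, 5 of 6 higher with none called. The stress genes Hspa1a (-1.18 ± 0.28) and Hspa1b (-1.14 ± 0.21) were not called. The part of these signals was not tested.

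Itgam was at 8.74, 8.83 and 9.17 in 1D11 tumors, against the 8.15, 8.34 and 8.21 given for control tumors. All 1D11 tumors were higher (0.68 ± 0.13, adjusted p = 0.111, limma). Maf was at 11, 11.60 and 11.80 in 1D11 tumors, 1D11 replicate 1 lying just above the highest control tumor (0.64 ± 0.20, adjusted p = 0.212). Stab1 was at 9.41, 9.72 and 9.76 in 1D11 tumors (0.63 ± 0.15, adjusted p = 0.141) and was called without control replicate 1. Vsig4 (0.63 ± 0.21), Lgmn (0.35 ± 0.13), Apoe (0.48 ± 0.27) and F13a1 (0.44 ± 0.21) were also wholly higher in 1D11 tumors, with Mertk (0.16 ± 0.10). These 8 genes stand against 12.1% of all genes.

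Gpnmb was the 1 gene wholly lower in 1D11 than in control tumors (6.95% of all genes). It was at 7.41, 7.63 and 7.82 in 1D11 tumors, against 8.35, 8.12 and 8.01 in control tumors (-0.54 ± 0.22, adjusted p = 0.307, limma).

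Chil3 had the largest difference of the 33 genes between 1D11 and control tumors. It was at 10.93, 9.18 and 9.23 in 1D11 tumors, against 8.66, 8.60 and 9.26 in control tumors. The first 1D11 tumor was far above the others, the groups overlapped, and the change of 0.94 ± 0.42 was not called (adjusted p = 0.341, limma). Chil3 is also made by neutrophils, and the mean of the 7 neutrophil markers was 8.20 in the same tumor, against 7.37 and 7.63 in the other 1D11 tumors; their part was not tested. Leaving out that tumor gave a Chil3 change of 0.37. Cd14 was also highest there, at 11.30, and so was Marco, at 7.16, against 6.25 and 5.91 in the other 1D11 tumors.

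TGF-beta neutralization in irradiated tumors (1D11_radiation against radiation) gave no call, and limma called 0 of all genes (0%). At an unadjusted p under 0.05 there were 3 genes against 5.40% of all genes, Chil3 higher (2.74%) and C1qa and Adgre1 lower (2.66%), and none was called with array weights, against 0.0471% of all genes. Of the 33 genes 11 were higher and 22 lower in 1D11_radiation tumors, at a median of -0.07, with 50.8% of all tested genes higher. The median was -0.16 without 1D11_radiation replicate 2 (7 higher), -0.01 without 1D11_radiation replicate 1 (15 higher) and -0.04 without 1D11_radiation replicate 3 (14 higher) or radiation replicate 2 (13 higher).

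Chil3 was at 9.37, 9.45 and 10.02 in 1D11_radiation tumors, against 8.72, 8.28 and 7.92 in radiation tumors. Every 1D11_radiation tumor was higher (1.30 ± 0.42, 2.47-fold, adjusted p = 0.84, limma; 95% interval 0.39 to 2.22). All 7 tested neutrophil markers had higher means in 1D11_radiation tumors, with tumor averages of 8.09 to 8.20 in 1D11_radiation and 7.39 to 7.79 in radiation tumors and none called, and their part in the Chil3 values was not tested.

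Marco also lay wholly higher, at 6.16, 7.11 and 6.14 in 1D11_radiation tumors (0.63 ± 0.33, adjusted p = 0.84, limma), so that 2 genes did, against 7.30% of all genes. The Marco change was 0.31 without 1D11_radiation replicate 2 and 0.32 for the mean of probe sets, the other one giving 0.01. Adgre1 and Msr1 lay wholly lower (6.12% of all genes). Adgre1 was at 9.34, 9.74 and 9.48 in 1D11_radiation tumors, against 9.83, 10.08 and 9.86 in radiation tumors (-0.40 ± 0.18, adjusted p = 0.84). Aif1 was at 8.34, 8.91 and 8.71 in 1D11_radiation tumors and overlapped with radiation tumors (-0.42 ± 0.26). This was -0.22 without radiation replicate 2, -0.71 without radiation replicate 3 and -0.27 without 1D11_radiation replicate 1. All 9 lineage genes and all 3 C1q chains had negative changes, from -0.42 to -0.03. Skeletal muscle markers were lower as well, 10 of 10, at a median of -1.69. Dendritic cell markers (0 of 6 higher) were at 6.23 to 6.30 in 1D11_radiation tumors and 6.43 to 6.83 in radiation tumors. T cell markers (1 of 4 higher) were at 6.18 to 6.27 in 1D11_radiation tumors and 6.35 to 6.43 in radiation tumors. Endothelial markers (6 of 7 higher) were at 6.97 to 7.19 in 1D11_radiation tumors and 6.78 to 6.89 in radiation tumors. None of these markers was called, and their part was not tested.

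**Figure D4:**
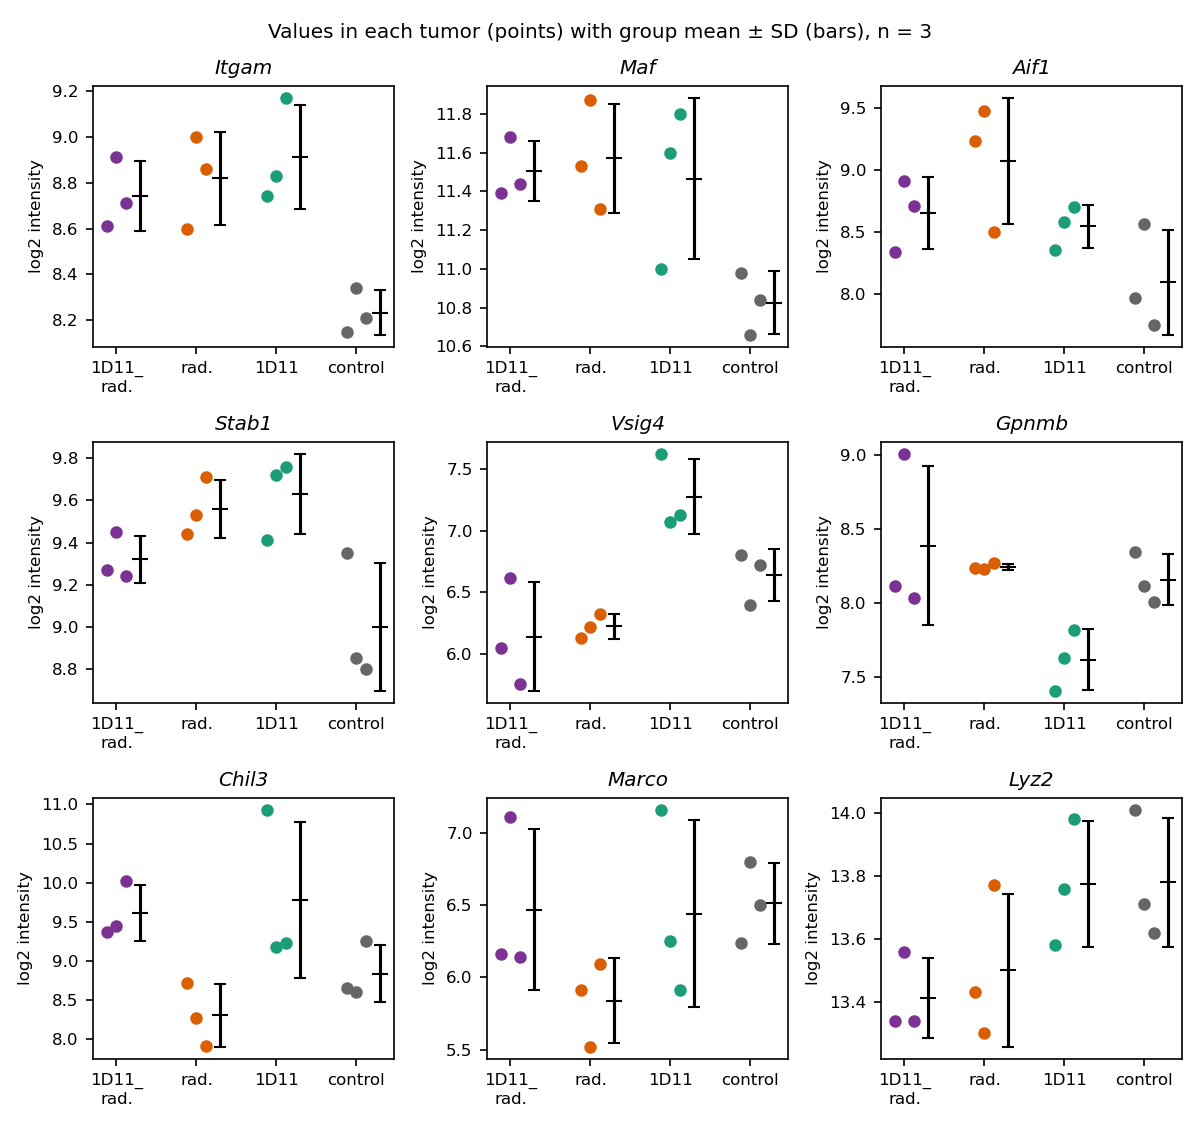
Each panel plots the log2 intensity of 1 gene in every tumor, with the group mean and SD as bars (n = 3). Itgam and Maf are lowest in control tumors, Vsig4 and Gpnmb differ in opposite directions between 1D11_radiation and 1D11 tumors, and Chil3 is higher in 1D11_radiation (9.37 to 10.02) than in radiation tumors (7.92 to 8.72).

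Both treatments together were set against neither (1D11_radiation against control). None of the 33 genes was called, against 2.35% of all genes in limma's test, and 7 had an unadjusted p under 0.05 (21.2% of all genes), 5 higher (11.8%) and 2 lower (9.34%). With array weights Axl was called, and 7.25% of all genes. In 1D11_radiation tumors 23 genes were higher and 10 lower, at a median of 0.11, with 49.4% of all tested genes higher. The median was -0.04 without 1D11_radiation replicate 2 (16 higher), 0.20 without 1D11_radiation replicate 1 (28 higher) or replicate 3 (25 higher), 0.22 without control replicate 1 and 0.04 without control replicate 3. Neutrophil markers were at 8.09 to 8.20 in 1D11_radiation tumors and 7.44 to 7.90 in control tumors, 6 of 7 higher with none called. Of endothelial markers 7 of 7 were lower and Tek fell (-0.72 ± 0.13), and the fibroblast marker Pdgfra fell (-0.93 ± 0.14). The part of these signals was not tested. The smallest adjusted p was that of Itgam (0.51 ± 0.13, adjusted p = 0.0648), at 8.61, 8.91 and 8.71 in 1D11_radiation tumors. Axl, at 11.46, 11.34 and 11.61 in 1D11_radiation tumors against 11.02, 10.92 and 11.30 in control tumors, had 0.39 ± 0.11 (adjusted p = 0.0781) and was called without control replicate 3. Maf had 11.39, 11.68 and 11.44 in 1D11_radiation tumors (0.68 ± 0.20, adjusted p = 0.0856). In this comparison 6 genes were wholly higher (14.7% of all genes) and 2, Lyz2 and Nos2, wholly lower (12%). The C1q chains had -0.06, 0.06 and 0.04, and the other probe sets of C1qb each gave -0.18.

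The interaction asks whether the radiation effect under 1D11 differed from that under 13C4. No gene of the 33 was called, and none of all genes was (0%). At an unadjusted p under 0.05 there were 11 of the 33 (7.48% of all genes), 10 negative (5.10%) and 1 positive (2.38%). With array weights Adgre1 and Stab1 were called, and 0.958% of all genes. The estimate was negative for 26 of 33 genes, at a median of -0.35, and for 57.8% of all genes at a median of -0.03. It was negative for all 9 lineage genes, all 3 C1q chains and all 4 proteases, and positive for 4 of the 6 activation-state and secreted genes. For C1qb the change with radiation was -0.23 under 1D11 and 0.39 under 13C4 on the probe set used. Its other probe sets gave smaller changes, -0.13 and -0.14 under 1D11 and 0.11 and 0.14 under 13C4.

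The smallest p values were those of Stab1 (-0.87 ± 0.21, adjusted p = 0.381, limma) and Itgam (-0.75 ± 0.19, adjusted p = 0.381). For Itgam the change with radiation was -0.17 ± 0.13 under 1D11 and 0.59 ± 0.13 under 13C4. For C1qa these were -0.33 ± 0.15 under 1D11 and 0.34 ± 0.15 under 13C4. Stab1 was called without control replicate 1, and the median over the 33 genes ran from -0.49 to -0.21 over the 18 alternatives, being -0.21 without control replicate 3. Skeletal muscle markers had negative interaction estimates too, 10 of 10 at a median of -2.02, and so had 6 of 6 tested dendritic cell markers at -0.72. So had 5 of 6 mast cell markers at -1.96 and 4 of 4 keratinocyte markers at -1.23, while 7 of 7 neutrophil markers were positive at 0.42. None was called, and their part was not tested. Without control replicate 1 and radiation replicate 3 together the median of the 33 genes was -0.49 and none was called.

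A wider list of 39 other macrophage and monocyte genes, of which 35 were tested, is given beside the 33. It was chosen with earlier results of these data known, so its calls are no independent support. Between radiation and control tumors 26 of 35 were higher, at a median of 0.36, and 5 rose, against the 2.39% of all genes called. These were the mannose receptor Mrc1 (1.14 ± 0.15, adjusted p = 0.00888, limma), the IgG receptors Fcgr1 (0.84 ± 0.13) and Fcgr4 (1.33 ± 0.23), their shared signaling chain Fcer1g (0.56 ± 0.11), and the macrophage growth factor Csf1. Between 1D11_radiation and control tumors 24 of 35 were higher, at a median of 0.16, and 3 were called, against 2.35% of all genes. Of these Mrc1 (1.32 ± 0.15, adjusted p = 0.00717) and Fcgr4 (1.01 ± 0.23) rose, and the fractalkine receptor Cx3cr1 fell (-1.52 ± 0.16, adjusted p = 0.00465). None of the 35 was called in the other pairs of groups or in the interaction. In 1D11 tumors 31 of 35 were higher than in control tumors, at a median of 0.26. There Mrc1 (1.05 ± 0.15) and Fcgr1 (0.86 ± 0.13) had changes near those with radiation (adjusted p = 0.0811 for each, limma). Cx3cr1 had -0.89 ± 0.16 in that comparison. The mean log2 intensity of the 35 genes was 9.79 to 10.07 in 1D11_radiation tumors, 9.94 to 10.12 in radiation tumors, 9.95 to 10.18 in 1D11 tumors and 9.65 to 9.83 in control tumors.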

How the data were processed

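Per the labels, biotin-labelled cRNA from RNeasy-extracted total RNA of each tumor was measured by the Affymetrix protocol. The authors deposited 1 linear intensity per probe set for 45101 probe sets. How they corrected background and normalized was not given in the sources used here. The medians of the 12 arrays, 62.3 to 66.1, and their sorted log2 values, at most 0.129 apart, show arrays already normalized to one another, so none was added. Background per array is unknown.

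The deposited intensities were taken as log2. Probe sets with a single symbol in the platform annotation (34945) were kept, the one with the highest mean over the 12 arrays stood for a gene, and genes in the lowest 30 percent, below 5.37, were not tested. Of the 35 genes, 9 had more than 1 probe set. Tests used limma 3.58.1 under R 4.3.3 (lmFit, 4 group means, then eBayes; residual degrees of freedom 8, prior 3.11), two-sided, with Benjamini-Hochberg adjustment over 12735 genes and calls under 0.05. The steps were tested on simulated data. Errors of log2 changes are SE.

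Values in all 12 tumors are given for genes called in any comparison and for the 3 largest changes in each of the 4 comparisons within an antibody or radiation state; further genes are given by group. The genes and lists were chosen with earlier results of these data known. Alternatives were quantile normalization, no filter, the mean of probe sets, a replicate block, array weights, each array left out, and both arrays with the most muscle signal left out. Promoter windows are those of RefSeq.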

Additional observations from a re-analysis of the deposited data

How the results depend on the processing

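Numbers of genes called depended on the settings. Between radiation and control tumors, 1 of 33 was called as reported, 0 with quantile normalization, no filter or the mean of probe sets, 1 with the replicate block and 6 with array weights (Adgre1, Aif1, Itgam, Lgmn, Maf and Stab1). In the same order, the shares of all genes called were 2.39%, 2.69%, 1.37%, 1.52%, 1.62% and 6.99%. Leaving out 1 tumor gave 0 to 2 (0.157% to 3.42% of all genes). Leaving out control replicate 1 and radiation replicate 3 together gave 3 (4.47% of all genes). Between 1D11_radiation and 1D11 tumors, 0 were called as reported, 6 with array weights (Axl, C1qa, Ctss, Lyz2, Stab1 and Vsig4), 0 to 1 with 1 tumor left out and 1 without both muscle-rich tumors. The shares of all genes were 0.0785%, 11.7%, 0.00785% to 1.78% and 3.29%. Between 1D11 and control tumors, 0 became 1 (Stab1) with array weights, 0 to 1 with 1 tumor left out and 1 without both. Here 0.102%, 0% to 0.165% and 0.463% of all genes were called. Between 1D11_radiation and control tumors, 0 became 1 (Axl) with array weights (7.25% of all genes) and 0 to 1 with 1 tumor left out (0.133% to 3.33%). The interaction had 2 with array weights (0.958% of all genes) and 0 to 1 with 1 tumor left out (0% to 0.165%). The labels do not say whether replicate numbers pair the tumors. Residual correlations were -0.28 to 0.20, over 0.1 in 1 of 18 same-numbered pairs. Tumors with different numbers were not compared, so these values do not settle it. The replicate block left all 6 counts as they were. The cause of these shifts was not tested. Calls over all genes moved more: 20 to 890 against 304 as reported between radiation and control tumors, 1 to 1491 against 10 between 1D11_radiation and 1D11 tumors, 0 to 59 against 2 between 1D11 and control tumors, 17 to 923 against 299 between 1D11_radiation and control tumors, 0 to 6 against 0 between 1D11_radiation and radiation tumors, and 0 to 122 against 0 in the interaction. The largest came with array weights, or, between 1D11 and control tumors, without both muscle-rich tumors. For the 13 largest or called changes picked by rule from these same data, in 8 genes, no log2 change reversed its sign in 234 values over the 18 alternatives. Of 3564 values for all 33 genes, 153 had the other sign, 5 of them for changes over 0.2 log2 units. Both totals include values that could not change. Dropping the filter, adding the replicate block or leaving out a tumor of neither group does not move the log2 change between a pair of groups. With 3 arrays a group and no background signal per array, small changes of dim genes such as Nos2 are not resolved.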
